A study of Mus musculus with 18 samples.

Results

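Reactive gliosis, the response of retinal glia to injury and stress, was followed here through 10 genes that were chosen by name: Gfap, Lcn2, Serpina3n, Edn2, Stat3, Socs3, Osmr, Fgf2, Cebpd and Timp1. They were chosen with earlier results of these data known. They were 10 of the 35006 genes counted in 18 bulk RNA-seq libraries of mouse retina. In WT retinas the mean level of each of the 10 was higher in mice given NACET than in untreated mice, and 4 of the 9 genes that could be tested rose, where 0.859% of all genes tested did. That count went to 0 when any of 3 single libraries was left out, and the same treated libraries also stood apart in genes outside the 10. In Akita retinas, which come from diabetic mice, none of the 9 passed the test with NACET, where 9.65% of all genes tested did. A count of 0 of 9 is near that background, and without Akita replicate 4 only 1 gene of all passed. Gfap and Edn2 were higher in each of the 6 WT + NACET libraries than in any of the other 12. The share of all genes that did so was not counted. Against the WT libraries alone, 6.29% of all genes tested were higher with no overlap.

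The study asked whether NACET (N-acetyl-L-cysteine ethyl ester), an antioxidant that enters cells readily, protects the diabetic retina. WT mice were male C57BL/6J animals with normal blood glucose. Akita mice were males heterozygous for the Ins2Akita allele on the C57BL/6 background (C57BL/6-Ins2Akita/J), in which misfolded insulin damages pancreatic beta cells; the model is therefore one of insulin deficiency, and the allele is present in every tissue. From 4 to 24 weeks of age the treated groups drank water with 0.33 mg/mL NACET, which corresponds to 50 mg/kg per day, and the other groups drank plain water. All retinas were taken at 24 weeks. There were 3 WT, 6 WT + NACET, 4 Akita and 5 Akita + NACET libraries. The labels do not tie the libraries to separate animals, so the p-values measure the spread between libraries.

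Müller glia span the retina and, with the astrocytes of the nerve fibre layer, respond to stress by raising the intermediate filament protein GFAP. A well-known route to this state runs through cytokines of the IL-6 family. They bind receptors such as OSMR, the oncostatin M receptor, and activate the transcription factor STAT3. SOCS3 is induced by STAT3 and shuts the receptor off again, and CEBPD is a transcription factor of acute inflammation. LCN2 (an iron-carrier binding protein), SERPINA3N (a protease inhibitor) and TIMP1 (an inhibitor of matrix metalloproteinases) are secreted products of reactive glia. Endothelin-2, encoded by Edn2, is released by stressed photoreceptors and acts on glia, and FGF2 is a growth factor that supports photoreceptor survival.

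The promoters of 9 of the 10 genes, all but Cebpd, were in the RefSeq promoter table (GRCm38.p6). The 250 bases upstream of the start were searched on both strands for the STAT motif TTCNNNGAA, the C/EBP motif TTNNGCAA and the AP-1 motif TGANTCA, none of which overlapped another in these windows. The STAT motif stood in 1 of the 9 promoters (Socs3) against 7.02% of all 32851 promoters in the table. The C/EBP motif stood in 1 (Lcn2) against 9.56%, and the AP-1 motif in 0 against 6.75%. The 4 sequences below are those of the genes with the clearest separation of WT + NACET libraries (Gfap and Edn2) and of the genes with a match. They run 5′ to 3′ on the strand of the gene and end at the base before the start, and capitals mark a motif.
Gfap, chr11:102897201-102897450, minus strand: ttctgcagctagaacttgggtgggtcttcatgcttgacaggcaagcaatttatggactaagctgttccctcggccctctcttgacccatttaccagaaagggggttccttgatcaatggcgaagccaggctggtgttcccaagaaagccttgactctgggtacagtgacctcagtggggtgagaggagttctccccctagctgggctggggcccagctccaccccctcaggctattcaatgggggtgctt
Edn2, chr4:120160956-120161205, plus strand: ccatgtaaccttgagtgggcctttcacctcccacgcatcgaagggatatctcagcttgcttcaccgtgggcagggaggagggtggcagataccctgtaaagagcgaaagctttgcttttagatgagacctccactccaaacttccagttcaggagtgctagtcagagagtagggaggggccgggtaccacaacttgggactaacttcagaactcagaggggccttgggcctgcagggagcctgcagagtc
Socs3, chr11:117969367-117969616, minus strand: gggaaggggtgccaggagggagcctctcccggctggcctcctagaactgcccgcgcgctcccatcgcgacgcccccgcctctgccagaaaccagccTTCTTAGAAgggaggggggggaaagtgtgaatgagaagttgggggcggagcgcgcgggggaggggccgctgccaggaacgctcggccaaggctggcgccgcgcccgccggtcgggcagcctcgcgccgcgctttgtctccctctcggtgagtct
Lcn2, chr2:32387740-32387989, minus strand: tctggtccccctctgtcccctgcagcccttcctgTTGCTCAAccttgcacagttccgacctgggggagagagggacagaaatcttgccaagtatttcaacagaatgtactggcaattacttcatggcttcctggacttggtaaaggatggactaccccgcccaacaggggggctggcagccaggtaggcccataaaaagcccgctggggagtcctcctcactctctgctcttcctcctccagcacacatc
Counted back from the start, the match in Socs3 spans -154 to -146 and that in Lcn2 -216 to -209. A match is a description of the letters only.

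The libraries held 11495596 to 17814479 counts in genes. Rod and Müller glia markers were detected in every library, as the label retina requires, with summed levels of 84780 to 203000 and 2217 to 5939 CPM (counts scaled to the library's TMM-adjusted total). The T-cell marker Cd3e was at 0 in all. The WT + NACET libraries stood apart from the other 12 in genes outside the 10, of which 3 are given, chosen after their values were seen. Acp1, a small phosphatase, was at 2.05 to 3.14 CPM in them and at 26.7 to 40.1 CPM in the others. Wdfy1 was at 89.0 to 103 CPM against 12.4 to 16.98 CPM, and Fn3krp at 29.2 to 70.7 CPM against 5.53 to 8.23 CPM. No such shift accompanied NACET in Akita libraries (Acp1 log2 fold change -0.17, adjusted p = 0.348 by edgeR). In every comparison that uses the WT + NACET libraries, the difference of NACET effects included, NACET and anything else that set those libraries apart cannot be told apart. Several libraries had a marker list out of line with their group, and 3 of them were left out together in an added fit. Akita replicate 4 had the highest rod and the lowest Müller glia sum, WT replicate 2 had a pigment epithelium and ciliary sum of 683 CPM against 82.3 and 100.5 CPM in the other WT libraries, and WT + NACET replicate 5 had 10020 CPM of lens and cornea markers. Lens and cornea markers were also high in Akita replicate 2 (851 CPM, others of the group 11.7 to 39.9 CPM) and in Akita + NACET replicates 3 and 5 (453 and 222 CPM, others 10.4 to 28.8 CPM), which were left out one at a time only. Counts are given with and without the 3 named first.

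In WT retinas the 10 genes spanned a wide range of abundance. Per length of exon, as CPM per kilobase (RPKM, mean ± SD, n = 3), Gfap stood at 12.8 ± 5.5, Cebpd at 10.4 ± 1.4 and Stat3 at 7.56 ± 0.70. The order of these 3 is not resolved, because the spread of Gfap covers both of the others. Serpina3n (3.73 ± 3.95), Edn2 (3.59 ± 1.19), Lcn2 (1.89 ± 0.52), Socs3 (1.68 ± 0.51) and Osmr (1.53 ± 0.48) followed, again with overlapping neighbours. Fgf2 (0.457 ± 0.111) and Timp1 (0.233 ± 0.346) were near the limit of detection, with 9 to 13 and 0 to 7 counts per WT library. Timp1, with at most 13 counts in any library, did not pass the filter on low counts, so 9 of the 10 genes were tested. On mm9, Gfap lies on chromosome 11 from 102748650 to 102762226, Edn2 on chromosome 4 from 119833811 to 119839965 and Osmr on chromosome 15 from 6763577 to 6824313.

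**Figure D1:**
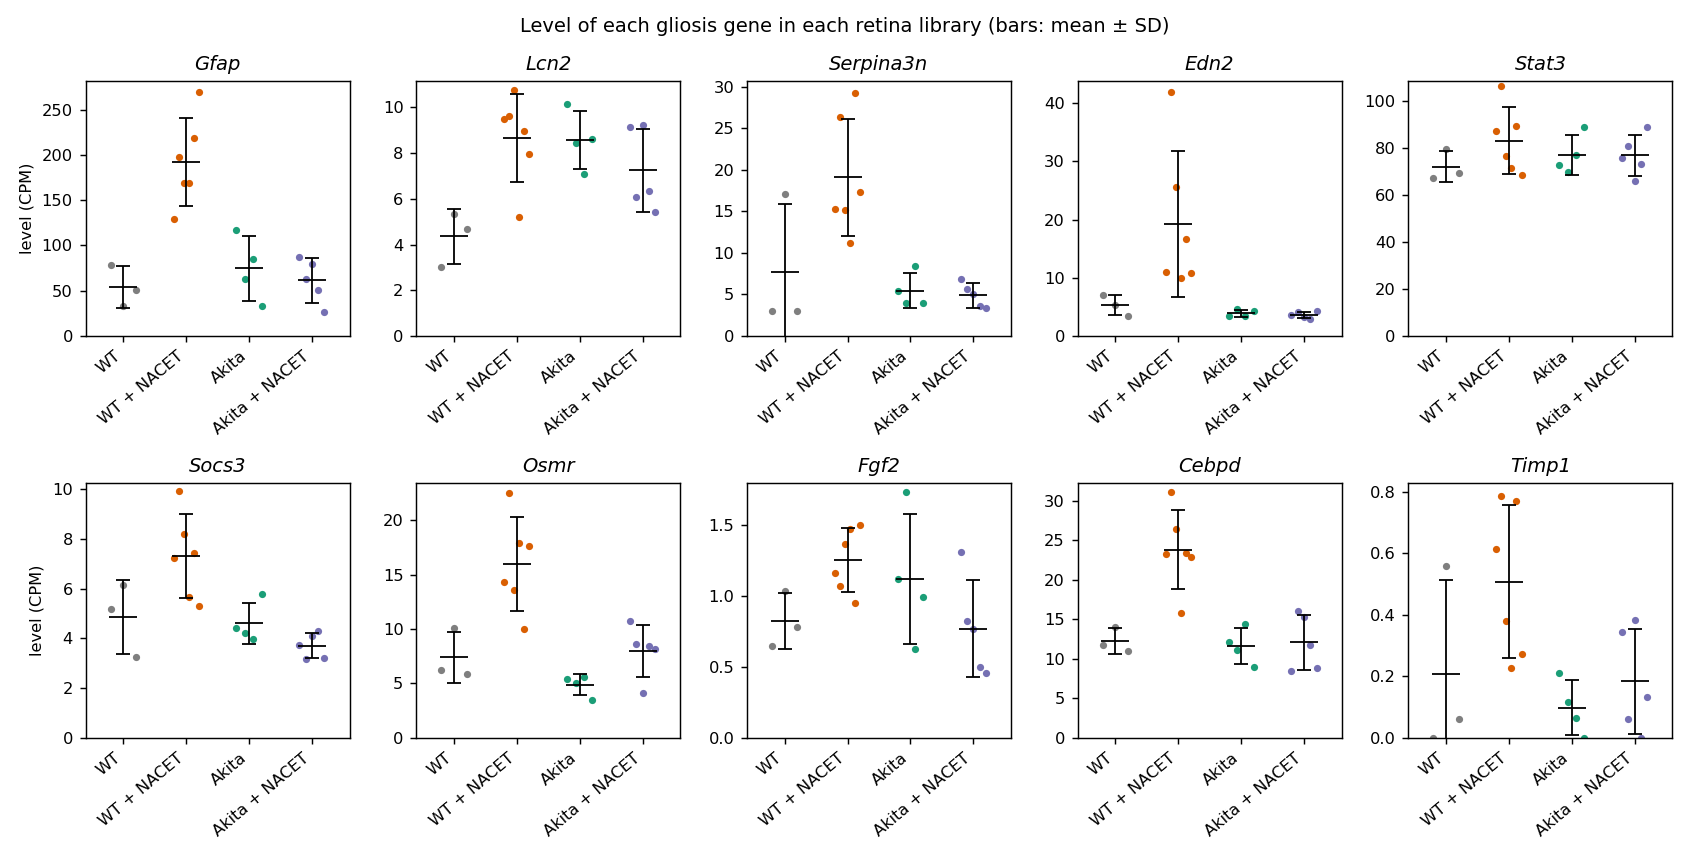
Level of each of the 10 genes in CPM (vertical axis from 0, linear) in each of the 18 libraries, by group on the horizontal axis; each point is a library, and the bars give the mean ± SD, cut at 0 where they would pass below it. The 6 WT + NACET points of Gfap and Edn2 lie above all 12 others, a separation not counted over all genes. Those of Stat3 (68.5 to 106.5 CPM) and Fgf2 (0.951 to 1.5 CPM) overlap the others, with 2 of the Stat3 points above all 12.

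NACET in WT mice was the comparison in which most of these genes moved up. Of the 9 tested, 4 rose in WT + NACET against WT, namely Edn2, Osmr, Lcn2 and Cebpd, and none fell. Of all 16183 genes tested, 1.48% passed the same threshold and 0.859% rose. The log2 fold change was above 0 for all 9, with a median of 0.99 against -0.01 over all genes tested. The threshold was an adjusted p of at most 0.05 in the quasi-likelihood test of edgeR, adjusted over all genes tested.

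Gfap encodes the filament protein that defines gliosis. It was at 78.6, 33.0 and 50.6 CPM in WT replicates 1 to 3, and in WT + NACET the lowest value was 129, the median 183 and the highest 269.5 CPM. The groups did not overlap, and the lowest WT + NACET library exceeded the highest of all other libraries, Akita replicate 1 at 117 CPM. The fold change was 3.55 (log2 1.83 ± 0.44 SE) and its adjusted p of 0.0539 missed the threshold in edgeR. It passed in 4 of 20 alternatives (DESeq2 with all groups or 2 groups, edgeR with 2 groups, and genes with a mean count of at least 50), with adjusted p from 5.458e-06 to 0.271 over the 20.

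Edn2, the endothelin gene, was at 6.97, 5.28 and 3.49 CPM in WT, and in WT + NACET at 9.99 (lowest), 13.8 (median) and 41.9 CPM (highest). The groups did not overlap, and the spread within WT + NACET was 4.19-fold, with replicates 2 and 3 highest. Edn2 rose 3.68-fold (log2 1.88 ± 0.42 SE, adjusted p = 0.0313, edgeR).

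Osmr, the receptor subunit for oncostatin M, was at 6.25, 10.1 and 5.84 CPM in WT and at 10.04, 15.98 and 22.5 CPM (lowest, median, highest) in WT + NACET. The groups touched, since WT replicate 2 lay just above the lowest WT + NACET library. Osmr rose 2.17-fold (log2 1.12 ± 0.27 SE, adjusted p = 0.0403, edgeR). Its intracellular partners did not pass the test. Stat3, the transcription factor below the receptor, was at 67.1 to 79.6 CPM in WT and 68.5 to 106.5 CPM in WT + NACET, a log2 difference of 0.21 ± 0.12 that did not pass (adjusted p = 0.353). Socs3, its feedback inhibitor, was at 5.17, 6.16 and 3.25 CPM in WT and at 5.32 to 9.93 CPM in WT + NACET (log2 0.59 ± 0.22 SE, adjusted p = 0.144, edgeR). For Socs3, WT replicate 2 lay above 2 of the 6 WT + NACET libraries.

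Cebpd and Lcn2 rose by similar amounts. Cebpd, the acute-inflammation transcription factor, was at 11.7, 14.1 and 10.96 CPM in WT and at 15.8, 23.3 and 31.2 CPM (lowest, median, highest) in WT + NACET. The groups did not overlap, and Cebpd rose 1.95-fold (log2 0.96 ± 0.22 SE, adjusted p = 0.0306, edgeR). Lcn2, the secreted iron-carrier binding protein, was at 3.02, 5.36 and 4.70 CPM in WT and at 5.22, 9.24 and 10.8 CPM in WT + NACET. Replicate 4 of WT + NACET lay below WT replicate 2, and Lcn2 rose 1.99-fold (log2 0.99 ± 0.23 SE, adjusted p = 0.03504, edgeR). In all, 3 of the 9 genes (Gfap, Edn2 and Cebpd) were higher in WT + NACET with no overlap, as were 6.29% of all genes tested.

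Serpina3n, the protease inhibitor, depended on 1 library. It was at 3.02, 17.1 and 2.95 CPM in WT and at 11.2, 16.4 and 29.2 CPM (lowest, median, highest) in WT + NACET. WT replicate 2, the library with 683 CPM of pigment epithelium and ciliary markers, was the exception in WT. With it the log2 fold change was 1.33 ± 0.51 (adjusted p = 0.169), and without it 2.68 (adjusted p = 0.00361, edgeR). Serpina3n has close paralogs, and reads with several alignments were dropped, so its level is uncertain. Fgf2 was at 0.646 to 1.04 CPM in WT and 0.951 to 1.5 CPM in WT + NACET (log2 0.61 ± 0.35 SE, adjusted p = 0.340, edgeR), on 9 to 26 counts per library. It shares its locus with Bbs12 on the same strand and Nudt6 on the other, and counting ignored strand. Gfap, Stat3 and Timp1 also overlap a gene on the other strand (Gm17536, Stat5a and Syn1). Timp1 was at 0, 0.560 and 0.0602 CPM in WT, where a count of 0 allows up to 0.215 CPM, and at 0.227 to 0.786 CPM in WT + NACET. An exact two-sided permutation test gave p = 0.167 (0.417 adjusted over 5 comparisons).

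The count of 4 was not stable. It fell to 0 without WT replicate 1, without WT replicate 3 or without WT + NACET replicate 3, and to 2 without WT replicate 2, which left Osmr and Serpina3n; without all 3 libraries with unusual marker levels it was also 2, the same pair. With the outside-exon read share in the model it was 2 (Edn2 and Osmr), and with the pigment epithelium and ciliary sum as a covariate it was 0, while the 9 log2 fold changes stayed above 0 in each of these fits.

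**Figure D2:**
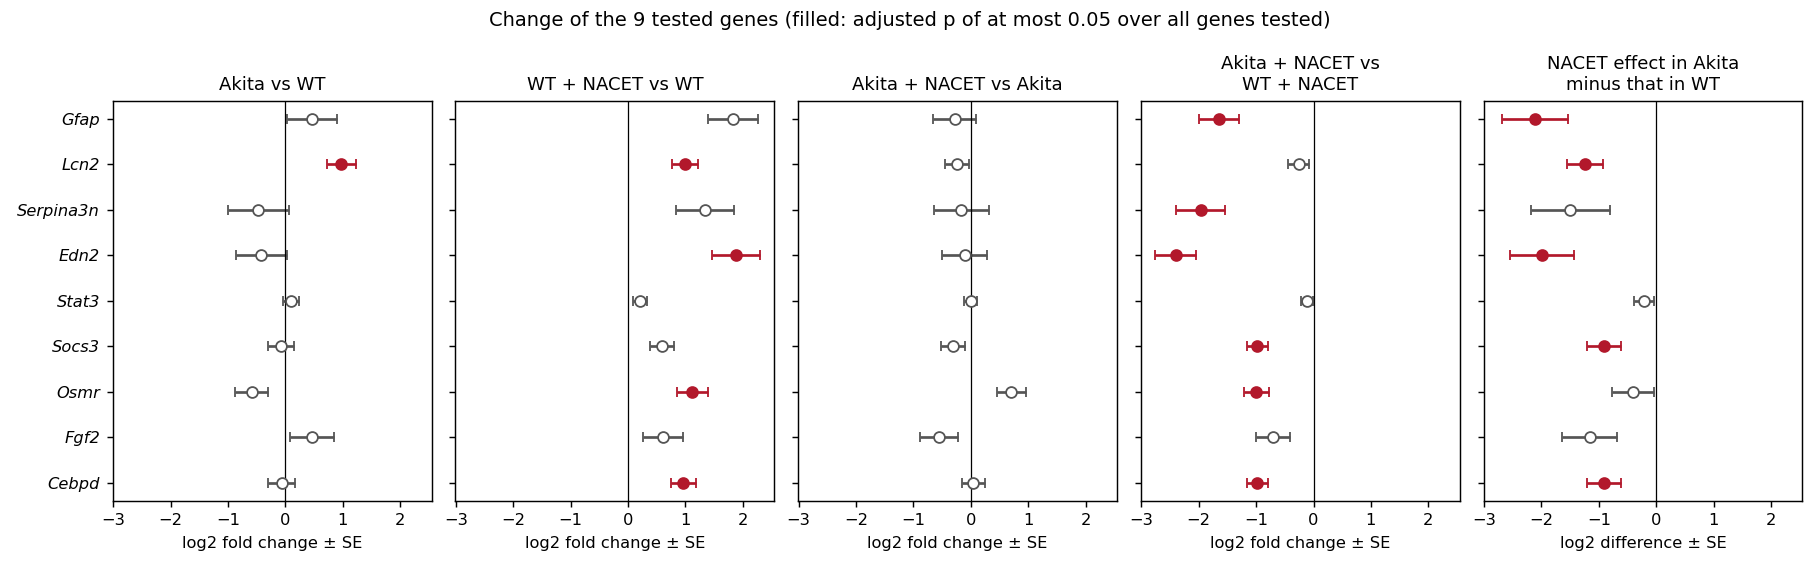
Log2 fold change ± SE (horizontal axis) of the 9 tested genes (vertical axis) in 4 comparisons and, in the last panel, the log2 difference of the NACET effect between Akita and WT. Filled points passed an adjusted p of 0.05 over all genes tested. All 9 points lie right of 0 for WT + NACET vs WT and left of 0 for Akita + NACET vs WT + NACET.

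In Akita against WT, Lcn2 rose and the other 8 genes did not pass. Of all genes tested 7.64% passed and 3.96% rose, so that 1 of 9 is near the background. Lcn2 was at 10.2, 8.45, 7.10 and 8.62 CPM in Akita replicates 1 to 4, all above the 3 WT libraries (3.02 to 5.36 CPM). The fold change was 1.97 (log2 0.98 ± 0.25 SE, adjusted p = 0.0267, edgeR). Gfap was at 117, 62.4, 85.5 and 33.2 CPM in Akita, which spans the whole WT range, and its log2 fold change of 0.46 ± 0.44 did not pass (adjusted p = 0.528). Akita replicate 4, the library with the lowest Müller glia sum, had the lowest Gfap of the 4. Osmr was at 5.40, 5.04, 5.59 and 3.48 CPM, below all 3 WT libraries, but the change missed the threshold (log2 -0.59 ± 0.29 SE, adjusted p = 0.200, edgeR). Edn2 (3.37 to 4.58 CPM), Cebpd (8.95 to 14.4 CPM), Stat3 (69.8 to 88.9 CPM), Socs3 (3.96 to 5.80 CPM), Serpina3n (3.98 to 8.41 CPM) and Fgf2 (0.628 to 1.74 CPM) overlapped WT, with adjusted p from 0.455 to 0.881. The Lcn2 call was lost in 8 of 18 alternatives, namely without Akita replicate 1 or 4, without WT replicate 1 or 2, in a fit of the 2 groups alone, without the 3 unusual libraries and with either covariate, at log2 fold changes of 0.77 to 1.14 over all alternatives. Timp1 was at 0 to 0.210 CPM in Akita (exact permutation p = 0.800 against WT).

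NACET in Akita mice changed none of the 9 genes at the threshold, where 9.65% of all genes tested passed, so that 0 of 9 is near the background. By unadjusted p under 0.05 the number was 1, Osmr, and by DESeq2 it was also 1, again Osmr. Osmr was at 10.7, 8.61, 4.15, 8.39 and 8.16 CPM in Akita + NACET replicates 1 to 5 against 3.48 to 5.59 CPM in Akita, so that replicate 3 alone overlapped (log2 0.71 ± 0.26 SE, adjusted p = 0.0803, edgeR). Without replicate 3 it passed (log2 0.87, adjusted p = 0.0263, edgeR). Without Akita replicate 4 or without all 3 unusual libraries 0 of the 9 passed, and the calls over all genes went from 1562 to 1 and 2. Gfap was at 87.7, 63.2, 79.2, 50.5 and 25.9 CPM in Akita + NACET, all within or below the Akita range (log2 -0.28 ± 0.38 SE, adjusted p = 0.657, edgeR). Lcn2 was at 9.17, 6.07, 9.25, 6.34 and 5.42 CPM (log2 -0.24 ± 0.21 SE, adjusted p = 0.457, edgeR), with 3 of the 5 libraries below the lowest Akita library. Edn2 (2.92 to 4.25 CPM), Cebpd (8.48 to 16.03 CPM), Stat3 (65.9 to 89.2 CPM), Socs3 (3.18 to 4.29 CPM), Serpina3n (3.33 to 6.89 CPM) and Fgf2 (0.457 to 1.31 CPM) overlapped Akita as well. Timp1 was at 0 to 0.383 CPM in Akita + NACET (exact permutation p = 0.397 against Akita).

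The NACET contrast in Akita minus that in WT was tested directly. It rests on the WT + NACET libraries, which also differed in Acp1 (log2 difference 3.57, adjusted p = 5.909e-11, edgeR). The contrast was more negative in Akita for 5 of the 9, where 20.3% of all genes tested passed and 10.2% were more negative. Gfap had a log2 difference of -2.11 ± 0.57 (adjusted p = 0.0209) and Edn2 of -1.99 ± 0.56 (adjusted p = 0.0226, edgeR). Lcn2, with log2 fold changes of 0.99 in WT and -0.24 in Akita, differed by -1.24 ± 0.31 (adjusted p = 0.0117). Cebpd differed by -0.91 ± 0.29 (adjusted p = 0.0349) and Socs3 by -0.90 ± 0.30 (adjusted p = 0.0372, edgeR). For Osmr, whose log2 fold change was above 0 in both genotypes, the difference was -0.41 ± 0.37 (adjusted p = 0.438). The count was 2 to 6 when 1 library was left out, 2 (Lcn2 and Serpina3n) without the 3 unusual libraries, and 0 with the outside-exon read share in the model, when 17 genes passed in all.

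The treated genotypes set side by side had the most calls among the 9. In Akita + NACET against WT + NACET, 6 of the 9 genes were lower and none higher, where 13.3% of all genes tested passed and 7.26% were lower. This comparison shares its WT + NACET libraries with the comparison to WT and is not independent of it. Edn2 was 5.30-fold lower (log2 -2.41 ± 0.35 SE, adjusted p = 0.000707, edgeR) and Serpina3n 3.92-fold lower (log2 -1.97 ± 0.43 SE, adjusted p = 0.00985). Gfap was 3.14-fold lower (log2 -1.65 ± 0.36 SE, adjusted p = 0.0104). Osmr (1.997-fold), Cebpd (1.97-fold) and Socs3 (1.97-fold) were lower too, with adjusted p of 0.00826, 0.00283 and 0.00290. For Edn2, Serpina3n, Gfap and Socs3 the groups did not overlap, which held for 4 of the 9 genes and 5.01% of all genes tested. Lcn2 (log2 -0.26 ± 0.19 SE, adjusted p = 0.358), Stat3 (-0.11 ± 0.11, adjusted p = 0.489) and Fgf2 (-0.70 ± 0.30, adjusted p = 0.113) did not pass. Timp1 had 14 counts in the 5 Akita + NACET libraries and 47 in the 6 WT + NACET libraries (exact permutation p = 0.0433, 0.216 adjusted over 5 comparisons). The count was 6 or 7 whichever library was left out and 6 without the 3 unusual libraries, and it was 4 with either covariate. Serpina3n and Gfap were lost with the outside-exon read share, and Gfap and Osmr with the pigment epithelium and ciliary sum.

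Against untreated WT, Akita + NACET retinas showed no called change in these genes, where 0.00618% of all genes tested passed, a single gene. By unadjusted p under 0.05 there was 1 of the 9, Lcn2 (log2 0.73 ± 0.24 SE, adjusted p = 0.9996, edgeR), and by DESeq2 with all groups 0 passed. All 5 Lcn2 values in Akita + NACET lay above the 3 in WT.

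Other genes of the same pathways were set beside the 10. Of 24 genes of IL-6 family and JAK-STAT3 signalling, 20 were tested. In WT + NACET against WT 0 rose and 1 fell, where 1.48% of all genes tested passed. The 1 was Cntfr, the receptor subunit for ciliary neurotrophic factor, at 18.8 ± 4.51 CPM in WT (n = 3) and 9.56 ± 1.61 CPM in WT + NACET (n = 6). It fell there by 0.97 ± 0.21 on the log2 scale (adjusted p = 0.0260, edgeR). In Akita against WT it fell by 0.97 as well (adjusted p = 0.0237), and in Akita + NACET against Akita it rose by 0.96 (adjusted p = 0.0203). Socs2, a relative of Socs3, was called in the same comparison, at 5.18 CPM in Akita and 9.04 CPM in Akita + NACET (log2 0.80 ± 0.22 SE, adjusted p = 0.0316, edgeR). The NACET effect in Akita minus that in WT was 1.93 for Cntfr and 1.24 for Socs2, opposite in sign to the 5 gliosis genes called there (adjusted p = 0.00136 and 0.0118). The median log2 fold change of the 20 in WT + NACET against WT was -0.13. In Akita against WT 1 of the 20 passed, in Akita + NACET against Akita 2, and for the difference of NACET effects 2. Of all genes tested 7.64%, 9.65% and 20.3% passed there, so these counts are near or below the background.

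Of 9 further genes of the pan-reactive astrocyte programme 7 were tested, and Steap4, a metalloreductase, was the 1 that rose in WT + NACET against WT. Its level was 1.40 ± 0.589 CPM in WT and 6.17 ± 2.82 CPM in WT + NACET, a 4.45-fold rise (log2 2.15 ± 0.43 SE, adjusted p = 0.0137, edgeR). In Akita it did not pass with NACET (1.42 and 0.959 CPM, adjusted p = 0.397), and the difference of the NACET effects was -2.71 ± 0.59 (adjusted p = 0.00630, edgeR). The median of the 7 was 0.67 in WT + NACET against WT, with 6 of 7 above 0. None of the 11 genes listed for A1 reactive astrocytes passed in that comparison (median 0.54, 9 of 11 above 0), and none of the 8 tested of 11 for A2 reactive astrocytes (median -0.06, 3 of 8 above 0). In Akita against WT Amigo2, an adhesion protein of the A1 list, fell from 78.8 to 48.4 CPM (log2 -0.70 ± 0.16 SE, adjusted p = 0.0181), and it rose to 72.5 CPM with NACET in Akita (log2 0.58 ± 0.14 SE, adjusted p = 0.0217, edgeR). Among 17 partners of endothelin and FGF signalling, Spry4, an inhibitor of FGF receptor signalling, was the 1 that passed in these comparisons. It was at 12.5 CPM in WT, 7.25 CPM in Akita (log2 -0.78 ± 0.19 SE, adjusted p = 0.0235) and 12.1 CPM in Akita + NACET (log2 0.74 ± 0.17 SE against Akita, adjusted p = 0.0206, edgeR). These lists were chosen with earlier results of the data known. Of all genes tested, 1.48% passed and 0.859% rose in WT + NACET against WT. The share that passed was 7.64% in Akita against WT, 9.65% in Akita + NACET against Akita and 20.3% for the difference of NACET effects. In the 2 Akita comparisons the calls of Amigo2 (1 of 11) and Spry4 (1 of 17) are near or below those shares.

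In Akita + NACET against WT + NACET, the comparison with the most calls among the 10, 9 genes of these lists passed. Of all genes tested 13.3% passed there, and the lists together were near that share. In the IL-6 and JAK-STAT3 list 2 of 20 were higher, Cntfr (log2 0.96, adjusted p = 0.00386) and Pias3, an inhibitor of STAT3 (0.40, adjusted p = 0.0171, edgeR). In the pan-reactive list 2 of 7 were lower, Steap4 (-2.67, adjusted p = 0.0001796) and Cd44, a hyaluronan receptor (-0.86, adjusted p = 0.0357, edgeR). Of the 11 A1 genes 2 were higher, Amigo2 (0.43, adjusted p = 0.0288) and Fkbp5 (0.79, adjusted p = 0.0268), and 2 lower, Gbp2 (-0.998, adjusted p = 0.0381) and H2-D1 (-0.27, adjusted p = 0.0466, edgeR). None of the 8 A2 genes passed, and of the 17 endothelin and FGF partners Spry4 was higher (0.54, adjusted p = 0.0235, edgeR). The pathway and marker calls in Akita against WT and in Akita + NACET against Akita did not hold in every fit. With the outside-exon read share in the model 0 genes of all were called in either comparison, and without the 3 unusual libraries 0 and 2 were.

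**Figure D3:**
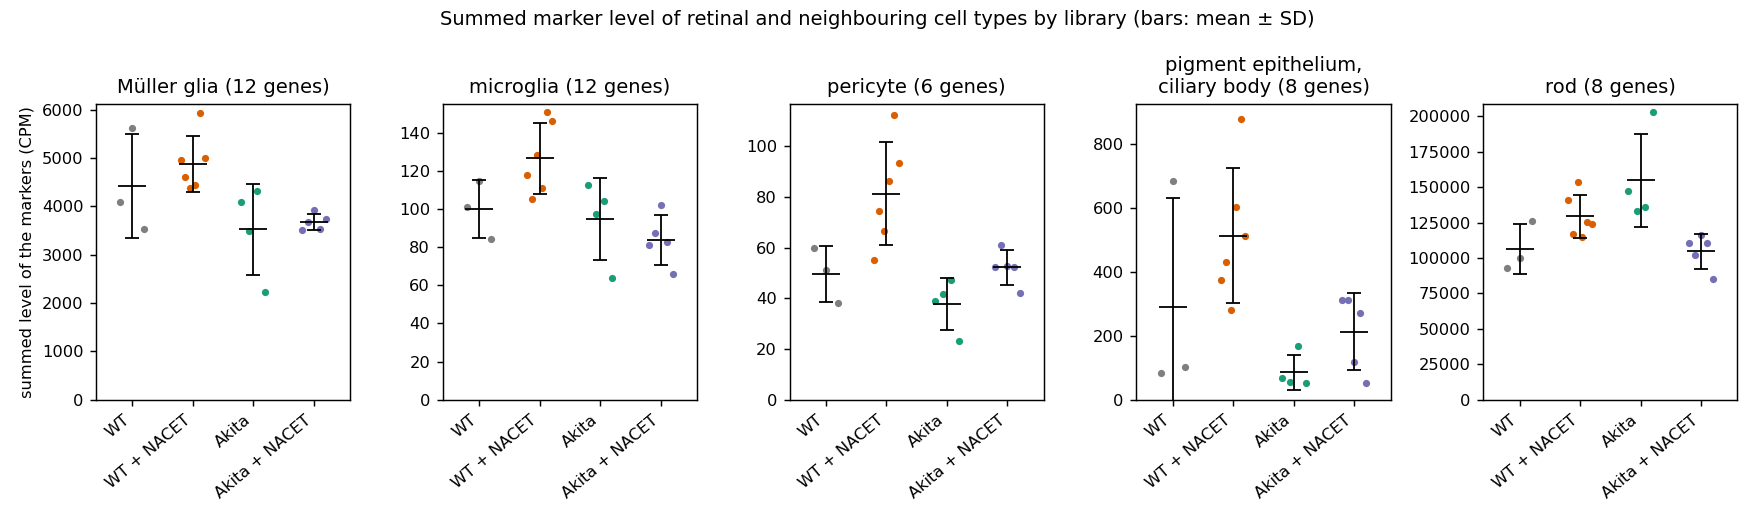
Summed level of the marker genes of 5 cell types in CPM (vertical axis from 0, linear) in each library, by group; each point is a library and the bars give the mean ± SD, cut at 0. The pericyte sums of WT + NACET (55.1 to 112 CPM) reach above those of the other groups, and the pigment epithelium and ciliary sums of WT + NACET (279 to 878 CPM) exceed all Akita sums and 2 of the 3 WT sums.

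Marker genes of glia and of neighbouring tissues were set beside these results; in bulk retina, fewer cells of a type and less RNA per cell cannot be told apart. None of the 12 Müller glia markers and none of the 6 astrocyte markers passed in WT + NACET against WT. Their medians were -0.04 and 0.14, and their sums overlapped (Müller glia 3533 to 5626 CPM in WT and 4371 to 5939 CPM in WT + NACET, astrocytes 227 to 443 and 236 to 474 CPM). Of 12 microglia markers 0 passed there (84.2 to 115 CPM in WT, 106 to 151 CPM in WT + NACET), but 7 of 12 were lower in Akita + NACET than in WT + NACET, among them C1qa (log2 -0.99, adjusted p = 0.00775) and Trem2 (-0.89, adjusted p = 0.0145, edgeR). Their sum was 65.8 to 102 CPM in Akita + NACET, with no overlap with WT + NACET. The Müller glia sum was 3519 to 3931 CPM in Akita + NACET, also without overlap, and 2 of 12 markers were lower. In Akita against WT 2 of 12 fell and 0 were above 0, and in Akita + NACET against Akita 2 rose. Of all genes tested, 13.3%, 7.64% and 9.65% passed in these 3 comparisons. Astrocyte sums of Akita (292 to 374 CPM) and Akita + NACET (252 to 272 CPM) did not overlap, with 0 of 6 markers called. Pericyte markers summed to 38.0 to 59.8 CPM in WT, 55.1 to 112 CPM in WT + NACET, 23.3 to 47.3 CPM in Akita and 41.9 to 61.1 CPM in Akita + NACET. The pigment epithelium and ciliary sum was 82.3, 683 and 100.5 CPM in WT, 279 to 878 CPM in WT + NACET, 52.2 to 166 CPM in Akita and 50.9 to 312 CPM in Akita + NACET. Leukocyte markers summed to 0.361 to 2.52 CPM over all libraries. The part of these cell types in the gliosis results was tested only for the pigment epithelium and ciliary sum, as a covariate (above), and was not tested for the others.

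Some rod and vessel markers passed in the Akita comparisons as well. Of all genes tested, 7.64% passed in Akita against WT and 9.65% in Akita + NACET against Akita. In Akita against WT 2 of 8 rod markers rose and all 8 were above 0. One of the called genes was Nrl, a rod transcription factor (log2 0.55, adjusted p = 0.0359, edgeR). In Akita + NACET against Akita 5 of 8 fell, with Rcvrn (recoverin) lowest at log2 -0.81 (adjusted p = 0.0161) and Pde6g at -0.73 (adjusted p = 0.0204). For the difference of the NACET effects 7 of 8 were more negative, where 10.2% of all genes tested were. Of 8 endothelial markers, Cldn5 fell in Akita (log2 -2.11 ± 0.59, adjusted p = 0.0365) and rose with NACET in Akita (2.14 ± 0.54, adjusted p = 0.0239, edgeR). Of 6 pericyte markers, Pdgfrb did the same (-1.08, adjusted p = 0.0437, and 1.01, adjusted p = 0.0354). No other vessel marker passed in Akita against WT or in Akita + NACET against Akita. In Akita against WT 2 of the 8 endothelial and 2 of the 6 pericyte markers were above 0. As for the pathway genes, no marker was called in either comparison with the outside-exon read share in the model. The share of uniquely aligned reads outside exons was 14.9 to 17.1% in WT, 9.55 to 16.5% in WT + NACET, 9.67 to 13.3% in Akita and 14.3 to 19.8% in Akita + NACET. By exact two-sided permutation, adjusted over 6 pairs, the smallest p was 0.0857, for 4 of the pairs. Akita did not overlap WT or Akita + NACET, with unadjusted p of 0.0571 and 0.0159 in that test. Groups this small allow few permutations, so the test cannot show that the shares were equal. In the fits that use it as a covariate, the share thus separated Akita from WT and from Akita + NACET, but not every pair of groups.

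**Figure D4:**
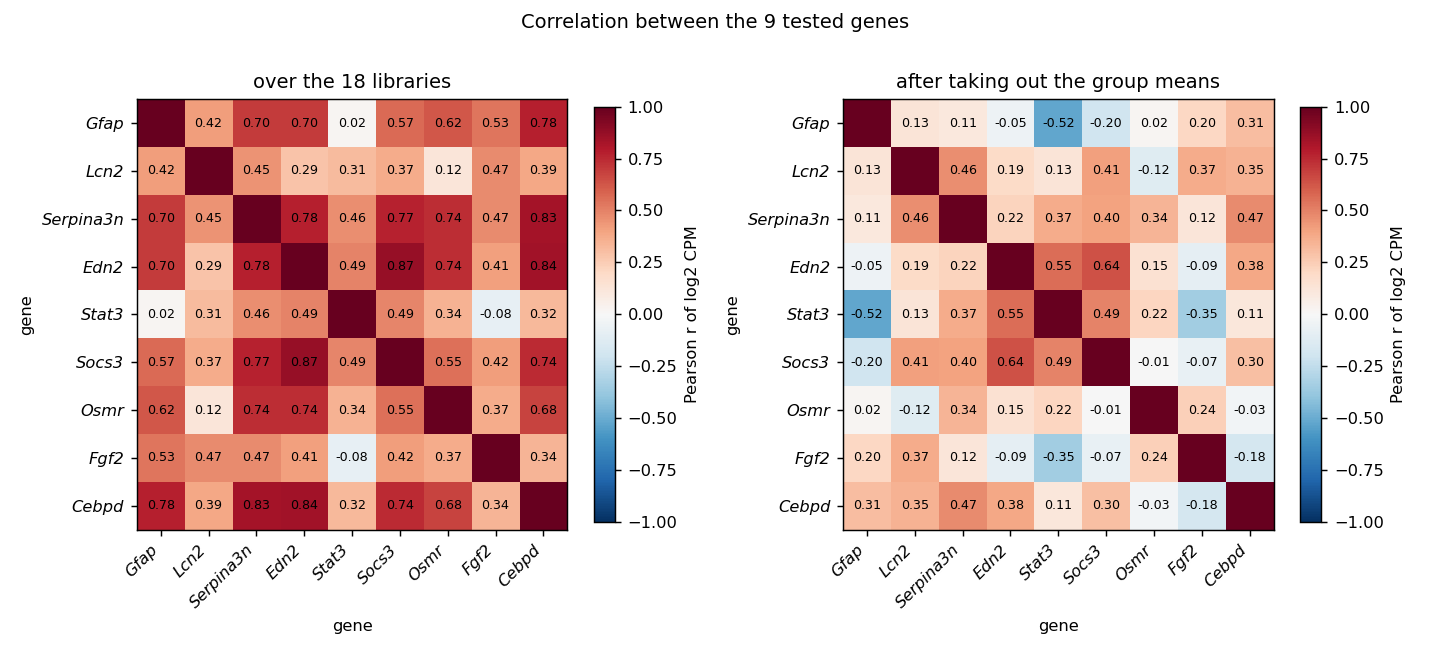
Pearson r of log2 CPM between the 9 tested genes, over the 18 libraries (left) and after the group means were taken out (right); the colour scale runs from -1 to 1. Over all libraries 16 of 36 pairs were above 0.5, and within groups 2.

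The genes rose and fell together across libraries mainly as a difference between groups. Over the 18 libraries the median Pearson r of the 36 pairs of log2 CPM was 0.48 (-0.08 to 0.87), and 16 pairs were above 0.5. The highest pair was Edn2 and Socs3. After the group means were taken out the median was 0.20 (-0.52 to 0.64), and 2 pairs were above 0.5. Lcn2 and Stat3 had no pair above 0.5 over the 18 libraries. The libraries share depth and marker levels as noted above, so these values are descriptions. By library, WT + NACET replicate 1 was among the 6 highest for all 10 genes and replicates 2 and 3 for 9 of 10. Replicates 4, 5 and 6 of WT + NACET were so for only 4, 7 and 6 of the 10. Replicate 2 held the highest value of 6 genes (Edn2, Stat3, Socs3, Osmr, Cebpd and Timp1). Outside that group no library was among the 6 highest for more than 3 genes. Such ranks were not counted over all genes.

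Among 14463 other genes with a mean of at least 1 CPM, those with the pattern most like Gfap over the 18 libraries were Trappc2l (r = 0.92), Nup37 (0.91), Alg5 (0.91), Cmc1 (0.91) and Cat (0.90), the last encoding catalase. The gene most like Serpina3n was Pcolce, a collagen-processing enhancer (r = 0.94; 36.2 CPM on average in WT + NACET and 14.2 in WT), and the one most like Osmr was Itgb8, an integrin subunit (r = 0.96; 31.6 and 11.2 CPM). The WT mean of Pcolce rests on 1 high library, as its lowest, median and highest WT values were 5.42, 5.89 and 31.4 CPM. Edn2 was nearest to 6430562O15Rik (0.92), Cebpd to Bst2 (0.91), Socs3 to Naglu (0.90), Stat3 to Acvr2b (0.85), Fgf2 to Ilvbl (0.84) and Lcn2 to Snrnp40 (0.82). The lowest of these after the group means were taken out was 0.66, for 6430562O15Rik with Edn2.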

How the data were processed

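RNA was sequenced from mouse retina in 18 libraries of 4 groups (WT, WT + NACET, Akita, Akita + NACET). Per the labels and the study's methods, the authors made poly(A) libraries, aligned single-end reads to mm9 with TopHat2 2.1.0 and deposited raw counts per gene from HTSeq 0.11.2, ignoring strand and dropping reads with several alignments. Genes for rRNA (0.591 to 1.44% of counts, 206 genes) and the unnamed entry (at most 0.00596%) were left out. Each library held 11495596 to 17814479 gene counts, and low counts limit Fgf2 and Timp1.

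Genes passing edgeR's filter (minimum count 10, total 15; 16183 genes) were fitted in all groups together with TMM scaling and the quasi-likelihood test (edgeR 4.0.16, R 4.3.3), adjusted by Benjamini-Hochberg over all genes and called at 0.05. DESeq2 1.42.0 was an alternative. CPM and RPKM were computed from the counts. The script was tested on simulated data. Timp1 was compared by exact two-sided permutation of CPM (scipy 1.17.1), and floors are 3 counts, covering counting error only. Correlations used log2 CPM with a prior count of 2. Named genes were the 10, called genes of the listed pathways and, as genes of like pattern, 5 for Gfap and 1 for each other gene. Other alternatives were scaling, filters, covariates, a replicate block and leaving out libraries. The genes and lists were chosen with earlier results of these data known.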

Additional observations from a re-analysis of the deposited data

Results flagged for a closer look

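The contrast of NACET with no NACET differed between Akita and WT for 5 of the 9 genes tested, by a test of the difference itself (Akita minus WT, edgeR's quasi-likelihood test). The log2 difference was -2.11 for Gfap, -1.99 for Edn2, -1.24 for Lcn2, -0.91 for Cebpd and -0.90 for Socs3. Of all genes tested, 20.3% passed the same test. The WT + NACET libraries it uses also stood apart in Acp1, Wdfy1 and Fn3krp, so that a NACET effect and another property of those libraries cannot be told apart. No library stood out by Dixon's test in 30 groups of 4 to 6 values (each gene in WT + NACET, Akita and Akita + NACET), where chance flags about 5%. The WT group, with 3 libraries, was not tested, and it holds the high Serpina3n value of WT replicate 2.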

How the results depend on the processing

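Of the values recomputed for single genes, 993 kept their direction and side of the threshold, 76 lost a call, 15 gained one and 44 changed sign. The covariate for pigment epithelium and ciliary markers and the fit without 3 libraries were chosen after seeing the data. The number of the 9 genes called in Akita vs WT (1) went to 0 in the 2-group edgeR fit, with either covariate and without the 3 libraries. In WT + NACET vs WT (4) it was 2 in the 2-group edgeR fit, without a filter, with the outside-exon covariate and without the 3 libraries, and 0 with the pigment epithelium covariate, but 5 by DESeq2 with all groups or 2 groups and with a mean count of at least 50. In Akita + NACET vs Akita (0) it was 1 by DESeq2 with all groups or 2 groups. For the difference of the NACET effects (5) it was 0 with the outside-exon covariate and 2 without the 3 libraries. Leaving out 1 library gave 0 to 1, 0 to 3, 0 to 1, and 2 to 6 in that order, 6 to 7 for Akita + NACET vs WT + NACET and 0 for Akita + NACET vs WT. The median correlation of 0.48 was 0.20 after the group means were taken out. The causes were not tested.

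Over all genes, DESeq2 called 2078 against 1237 (Akita vs WT), 2391 against 1562 (Akita + NACET vs Akita), 717 against 240 (WT + NACET vs WT) and 10 against 1 (Akita + NACET vs WT). With the outside-exon covariate the counts were 0, 0, 61 and 1, with 194 against 2148 for Akita + NACET vs WT + NACET and 17 against 3289 for the difference. The same-numbered replicates were not treated as pairs in the main fit. Their deviations correlated from -0.33 to 0.34 (22 pairs, 4 over 0.1). Those of other-numbered libraries correlated from -0.45 to 0.45 (97 pairs, 26 over 0.1). These values cannot settle whether the replicates were paired. With the replicate number as a block, 507 genes were called for Akita against WT, 219 for NACET in Akita, 190 in WT + NACET vs WT, 1363 in Akita + NACET vs WT + NACET, and 3 of the 9 genes in WT + NACET vs WT. Under the block, Cebpd changed sign in Akita vs WT (0.0365) and Akita + NACET vs WT (0.119), and Fgf2 in the latter (0.0378).

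Signs also changed for uncalled log2 values, many of them near 0 but not all. In the main fit Serpina3n was at -0.47 in Akita vs WT and -0.64 in Akita + NACET vs WT. Edn2 was at -0.42 in Akita vs WT. Stat3 in Akita + NACET vs Akita was 0.0267 in the 2-group edgeR fit, 0.0258 with a mean count of at least 50 and 0.0735 without the 3 libraries. With the outside-exon covariate, Edn2 (0.13) and Socs3 (0.0664) changed in Akita vs WT and Gfap (0.0087) in Akita + NACET vs Akita. Without the 3 libraries, Serpina3n (0.99), Socs3 (0.0044) and Cebpd (0.15) changed for Akita against WT, Cebpd (-0.0576) in Akita + NACET vs Akita, and Gfap (-0.075), Serpina3n (0.71), Fgf2 (0.0951) and Cebpd (0.0925) in Akita + NACET vs WT. With the pigment epithelium covariate, Serpina3n (0.56) and Cebpd (0.0444) changed in Akita vs WT, and Edn2 (0.0476) and Cebpd (-0.0573) in Akita + NACET vs Akita. Leaving out 1 library gave, in Akita vs WT, -0.18 to 0.0461 for Cebpd, -0.88 to 0.87 for Serpina3n and -0.31 to 0.13 for Socs3. For NACET in Akita it gave -0.53 to 0.0185 for Gfap, -0.32 to 0.13 for Serpina3n, -0.0584 to 0.0744 for Stat3 and -0.0782 to 0.17 for Cebpd. In Akita + NACET vs WT it gave -0.0118 to 0.41 for Osmr, -0.14 to 0.0916 for Cebpd, -0.35 to 0.0963 for Fgf2, -0.0754 to 0.55 for Gfap and -1.03 to 0.71 for Serpina3n.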
